A study of Homo sapiens with 6 samples.

Results

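FOXO proteins are forkhead transcription factors that act at the end of the insulin and growth factor pathway. When the pathway is on, the kinase AKT phosphorylates them, 14-3-3 proteins bind them and they are kept out of the nucleus. When it is off they enter the nucleus and raise genes of cell cycle arrest, stress defence, catabolism and feedback on insulin signalling itself. The libraries described here measure mRNA, not the phosphorylation or place of these proteins. The 10 genes described here were taken by symbol from the count table: the factor genes FOXO1, FOXO3 and FOXO4, and the responsive genes SESN3, PIK3IP1, IRS2, BCL6, KLF2, KLF6 and CITED2. All 10 were found among 27980 symbols, and all 10 passed the low-count filter that left 15473 genes for testing.

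The libraries come from RKO, a human colon carcinoma line described as poorly differentiated. In 3 libraries the cells stably expressed a lentiviral short hairpin RNA against TRIP6, a LIM-domain adaptor protein (shTRIP6, genotype given as TRIP6 knockdown), and in 3 a scrambled hairpin from the same kind of vector (shControl, genotype given as WT). Both groups went through puromycin selection after infection. The labels number the libraries of a group as biological replicates, but they do not say whether these were separate cultures or came from separate infections, so p-values measure only the spread between these libraries, which may be technical.

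Library totals lay between 29605764 and 32089298 counts. TRIP6, the targeted gene, stood at 19.4 to 19.8 CPM (counts scaled to library size) in shTRIP6 and at 73.9 to 86.4 CPM in shControl, so 24.3% of the mean remained (log2 fold change -2.04 ± 0.07 SE, edgeR adjusted p = 1.25e-14). The transcriptomes differed widely, so calls were common: at an edgeR adjusted p under 0.05, 60.1% of tested genes were called, 29.0% as higher and 31.2% as lower in shTRIP6, and in 65.4% the libraries of the groups did not overlap. The labelled cell type was checked against epithelial markers: KRT8, KRT18 and KRT19 were present at over 1 CPM in both groups. EPCAM, KRT20 and VIL1 had no count in any library, and CDH1 and CDX2 were below 1 CPM. KRT19 was the 1 epithelial marker called, as higher in shTRIP6. Its level was 21.7 ± 1.35 CPM per kb of exon there and 5.92 ± 0.973 in shControl. Markers of other cells also moved with the groups. Of 8 fibroblast markers, 5 were lower in shTRIP6 and none higher, their summed level was 4.21 to 4.63 CPM in shTRIP6 against 25.2 to 27.9 CPM in shControl, and DCN and POSTN had no count in shTRIP6. Of 5 endothelial markers 1, PECAM1, was called and had no count in shTRIP6, with sums of 0.257 to 0.288 against 1.78 to 2.31 CPM. Of 6 leukocyte markers, CD14 and CD68 rose, the sums were 236 to 245 against 187 to 236 CPM, and PTPRC and CD3E had no count in shTRIP6. The part of these shifts in the results below was not tested.

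FOXO proteins bind a short forkhead element whose core reads GTAAACA in the high-affinity form. The promoter windows of the members were searched for it on both strands, along with the looser forkhead form ATAAACA, and with CAAAACA, the core of insulin response elements. Windows from RefSeq (GRCh38.p14) ran from 250 bases before to 50 bases after each annotated start, and the 10 genes had 17 windows. The 4 matches are shown because they are the places where a member's promoter window holds the letters that FOXO proteins are known to bind, and 2 of them belong to genes of the factors themselves. Each is printed with 30 bases around it, 5′ to 3′ on the gene's strand, with the match in capitals.
FOXO4, chrX:71095863-71095892, plus strand: cccggcgagtgGTAAACAgagacgtcagga
PIK3IP1, chr22:31292454-31292483, minus strand: taaagagaggcTGTTTACcagaacagcata
FOXO3, chr6:108560672-108560701, plus strand: ccgagcgaaacATAAACAaacgcacgcaca
IRS2, chr13:109786605-109786634, minus strand: gagtcacatgtTGTTTTGctcttcttagtt

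The core GTAAACA was therefore found for 2 of 10 members, FOXO4 and PIK3IP1, and 4.19% of 27305 genes with a window hold it. The looser ATAAACA was found for FOXO3 alone and in 5.16% of genes, and CAAAACA for IRS2 alone and in 6.05% of genes. The matches of FOXO4 and PIK3IP1 lie 23 and 16 bases after a RefSeq start, and those of FOXO3 and IRS2 lie 234 and 40 bases before one. The gene spans given below are from another annotation, GENCODE 29, and can begin elsewhere. The FOXO3 match lies inside its span, which begins at 108559835, so it precedes only later starts of the gene. The FOXO4 match lies before its span, which begins at 71096197. No binding was measured, so a match is only a description of the letters. FOXO4 and PIK3IP1, which carry the high-affinity core, were also among the 3 members with the largest falls, given below, while SESN3, with the largest fall, had no match to these letters in its window. Whether a match has a part in any fall was not tested.

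Of the 10 members, 8 were lower and 2 were higher in shTRIP6, against 31.2% and 29.0% of all tested genes. The members, like the lists below, were chosen with earlier results of these data known, so such shares are a description only. The factor genes FOXO1, FOXO3 and FOXO4 were all lower, and so were SESN3, PIK3IP1, IRS2, BCL6 and CITED2. The Kruppel-like factor genes KLF2 and KLF6 were the 2 that rose. In bulk libraries, fewer cells that express a gene and less of its RNA per cell cannot be told apart. The groups did not overlap for any member, which was also so for 65.4% of all tested genes. Falls of at least 2-fold were seen for 3 members, FOXO4, PIK3IP1 and SESN3, against 10.5% of tested genes, and no member rose by 2-fold or more, which 4.38% of tested genes did. The median log2 fold change over the members was -0.54, against 0.00 over all tested genes.

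**Figure D1:**
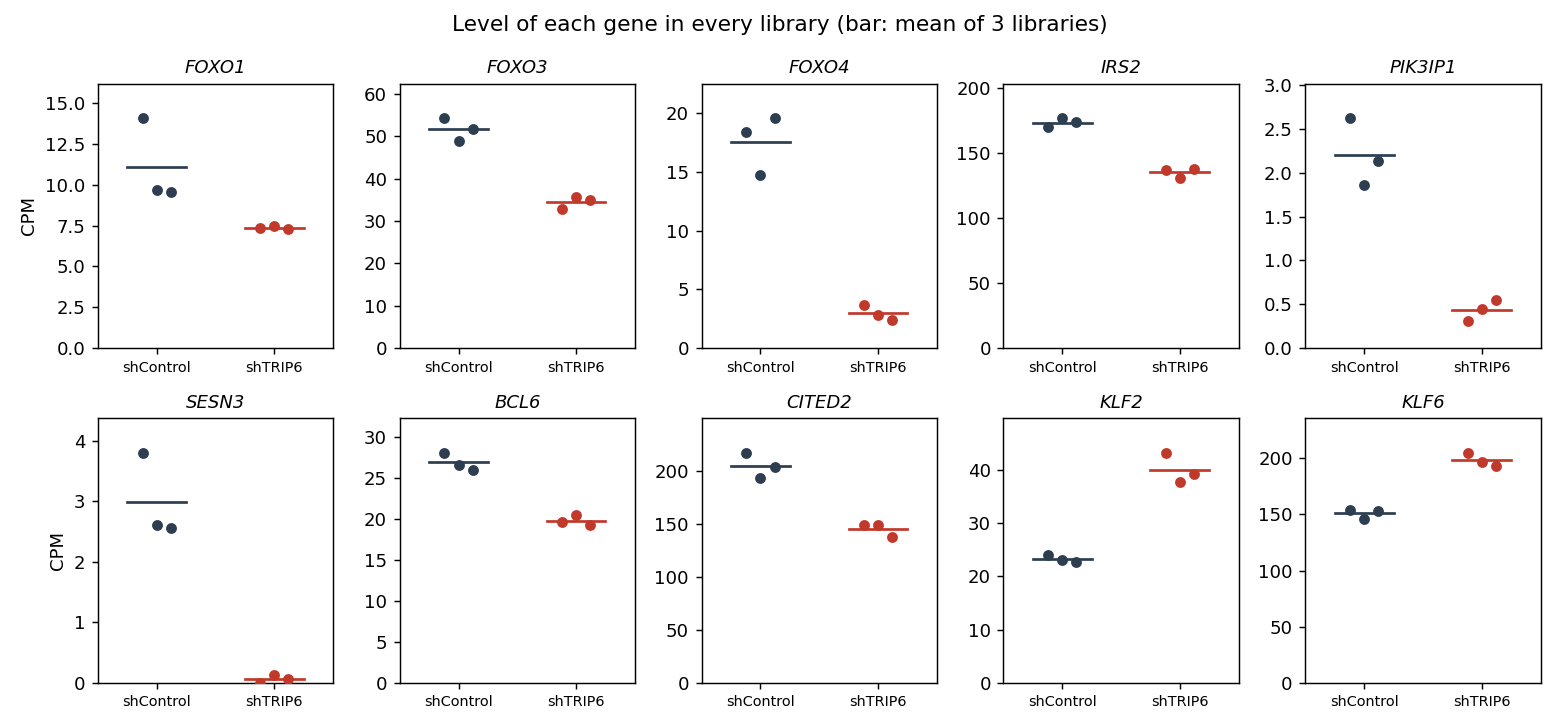
Level of each of the 10 genes in CPM (vertical axis, starting at 0, own scale per gene) in the 3 shControl and 3 shTRIP6 libraries, 1 point per library and a bar at the mean. For each gene the 3 points of a group lie wholly to 1 side of the other group's, with KLF2 and KLF6 higher and the other 8 genes lower in shTRIP6.

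FOXO4 had the largest change among the factor genes. Its gene is annotated on the X chromosome at 71096197 to 71103535, plus strand (GRCh38, GENCODE 29, as for the other genes). Its level was 3.70, 2.78 and 2.38 CPM in the 3 shTRIP6 libraries and 18.4, 14.7 and 19.6 CPM in the shControl libraries. All shTRIP6 values were thus far below the lowest control value, with means of 2.95 ± 0.679 and 17.6 ± 2.53 CPM (SD, n = 3 each) that left 16.8% of the control level. The log2 fold change was -2.57 ± 0.16 (SE, edgeR adjusted p = 1.04e-10), and 5.25% of tested genes had a lower one.

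FOXO3, the most abundant factor gene, fell less. It is annotated at 108559835 to 108684774 of chromosome 6, plus strand. Its values were 32.8, 35.6 and 34.9 CPM in shTRIP6 and 54.2, 48.7 and 51.7 CPM in shControl. The groups were well apart, and the log2 fold change was -0.58 ± 0.07 (edgeR adjusted p = 5.98e-07). FOXO3 has a near-identical processed copy, FOXO3B, on chromosome 17: 64.2% of the 50-base words of the FOXO3B transcript occur in FOXO3 transcripts, and 15.7% of those of FOXO3 occur in FOXO3B. The sources used here do not give how the authors' counting placed such reads. Words shared with any other gene made up 27.8% of FOXO3, 3.67% of FOXO1, 1.55% of IRS2 and 0.643% of PIK3IP1, and none were found for the other 6 members. FOXO3B itself had 13.1 ± 0.0283 CPM with the TRIP6 hairpin and 11.4 ± 0.251 CPM in the controls. It did not pass the test (log2 fold change 0.21 ± 0.10, edgeR adjusted p = 0.0946), but did under upper-quartile scaling (0.25, edgeR adjusted p = 0.0413). With both rows summed, an alternative chosen after the data were seen, FOXO3 was still lower (log2 fold change -0.40 ± 0.06, edgeR adjusted p = 1.40e-05). Another gene, AC026271.3, holds 10.9% of the FOXO3 words and was not part of that sum.

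FOXO1, the founding family member in insulin signalling, is annotated at 40469953 to 40666597 of chromosome 13, minus strand. Its values were 7.34, 7.45 and 7.29 CPM in shTRIP6 and 14.1, 9.66 and 9.57 CPM in shControl. The shTRIP6 libraries were nearly equal, while shControl replicate 1 stood above the other two. The log2 fold change was -0.59 ± 0.15 (edgeR adjusted p = 0.00220), and -0.39 ± 0.14 without shControl replicate 1 (edgeR adjusted p = 0.0146). FOXO6, the remaining factor gene, had 2, 0 and 6 counts in shTRIP6 and 15, 25 and 5 counts in shControl, groups that overlap. It was too low to pass the filter, and in 4 alternatives that did test it (no filter, DESeq2, and leaving out shTRIP6 replicate 3 or shControl replicate 3) it was called lower.

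Scaled to exon length, the factors changed places. The summed level of FOXO1, FOXO3 and FOXO4 was 6.50 ± 0.118 CPM per kb of exon in shTRIP6 against 13.6 ± 1.28 CPM per kb in shControl (SD, n = 3 each). FOXO4 made up 36.5%, 35.2% and 40.8% of that sum in the shControl libraries and 16.5%, 12.2% and 10.8% in the shTRIP6 libraries. FOXO3 made up 48.0% to 52.0% in shControl and 65.3% to 70.8% in shTRIP6, and FOXO1 11.0% to 15.4% and 18.1% to 18.4%. FOXO4 was thus the second factor by length-scaled level in shControl and the lowest of these 3 in shTRIP6, below FOXO1 in every library.

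**Figure D2:**
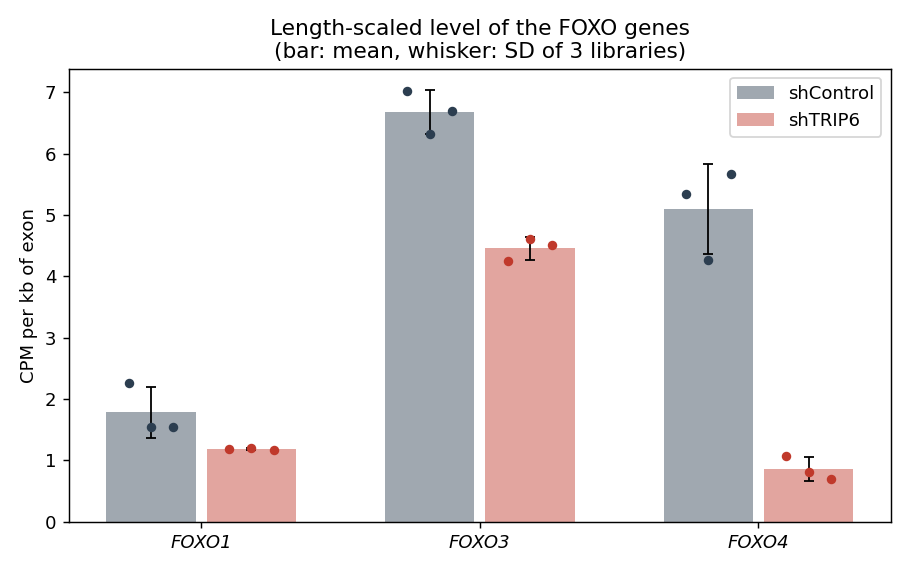
Length-scaled level of the 3 tested FOXO genes (vertical axis, CPM per kb of exon, from 0), with 1 point per library, bars at the mean and whiskers at the SD of 3 libraries. FOXO4 falls from 5.10 in shControl to 0.857 CPM per kb in shTRIP6, below FOXO1 at 1.18 CPM per kb.

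Genes that feed back on insulin signalling followed in the same direction. SESN3 encodes a sestrin, a stress protein that restrains the mTORC1 growth pathway and is a textbook FOXO target. It is annotated at 95165513 to 95232541 of chromosome 11, minus strand. Its counts were 0, 4 and 2 in shTRIP6 and 113, 81 and 79 in shControl, or 0, 0.128 and 0.0643 CPM against 3.80, 2.60 and 2.55 CPM. SESN3 was thus low in the controls and close to undetected in shTRIP6, where a count of 0 allows up to 0.0941 CPM in replicate 1 (3 counts, counting error only). The log2 fold change was -5.46 ± 0.52 (edgeR adjusted p = 3.55e-08), and it was -6.38 ± 0.65 without shTRIP6 replicate 2, which held most of the remaining counts.

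PIK3IP1 encodes a membrane protein that inhibits the catalytic subunit of PI3K. It is annotated at 31281593 to 31292534 of chromosome 22, minus strand. Its counts were 10, 14 and 17 in shTRIP6 and 78, 58 and 66 in shControl, or 0.436 ± 0.117 against 2.21 ± 0.385 CPM. Every shTRIP6 library was below every control library, and the log2 fold change was -2.33 ± 0.35 (edgeR adjusted p = 1.52e-05). Its exons overlap those of the antisense gene PIK3IP1-AS1 by 36 bases, and that gene had 5 counts in shTRIP6 and 7 in shControl.

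IRS2, the adaptor that couples the insulin and IGF1 receptors to PI3K, is annotated at 109752698 to 109786568 of chromosome 13, minus strand. Its values were 137, 131 and 138 CPM in shTRIP6 and 169.9, 177 and 174 CPM in shControl. The fall was small but outside the spread of the libraries, with a log2 fold change of -0.36 ± 0.05 (edgeR adjusted p = 2.43e-06). It was by far the most abundant of these 3 feedback genes: the level scaled to exon length in shControl was 21.3 CPM per kb for IRS2, 0.580 for PIK3IP1 and 0.282 for SESN3. The exons of FOXO1, IRS2, SESN3 and BCL6 also overlap those of non-coding or clone-named genes, over 0.88% (SESN3) to 5.36% (BCL6) of their length, and whether the counting used strand is unknown.

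The responsive genes that encode transcriptional regulators divided. BCL6, a zinc finger repressor known from germinal centre B cells, is annotated at 187721377 to 187745727 of chromosome 3, minus strand. Its values were 19.6, 20.5 and 19.2 CPM in shTRIP6 and 28.0, 26.6 and 26.0 CPM in shControl. It was lower in every shTRIP6 library, with a log2 fold change of -0.44 ± 0.08 (edgeR adjusted p = 0.000106). CITED2, which binds the co-activators CBP and p300 and limits HIF1 activity, is annotated at 139371807 to 139374620 of chromosome 6, minus strand. Its values were 149, 149 and 138 CPM in shTRIP6 and 217, 193 and 204 CPM in shControl, a log2 fold change of -0.49 ± 0.05 (edgeR adjusted p = 1.93e-07). CITED2 remained the most abundant member per kb in both groups, at 57.3 ± 2.57 in shTRIP6 and 80.8 ± 4.76 CPM per kb in shControl.

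KLF2 and KLF6 went the other way. KLF2, a zinc finger factor of quiescence in endothelium and lymphocytes, is annotated at 16324817 to 16327874 of chromosome 19, plus strand. Its values were 43.2, 37.7 and 39.1 CPM in shTRIP6 and 24.0, 23.1 and 22.7 CPM in shControl. The log2 fold change was 0.78 ± 0.08 (edgeR adjusted p = 5.78e-08), and 92.2% of tested genes had a lower one. KLF6, a broadly expressed factor described as a tumour suppressor, is annotated at 3775996 to 3785281 of chromosome 10, minus strand. Its values were 205, 197 and 193 CPM in shTRIP6 and 154, 146 and 153 CPM in shControl, a log2 fold change of 0.39 ± 0.05 (edgeR adjusted p = 8.16e-07).

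**Figure D3:**
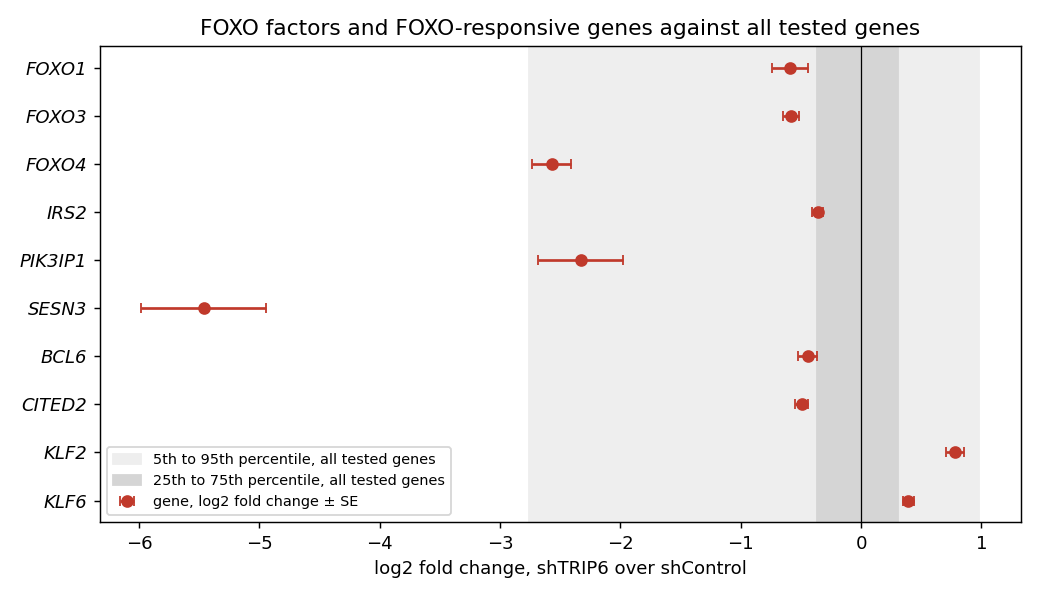
Log2 fold change of shTRIP6 over shControl (horizontal axis) for the 10 genes, with points at the edgeR estimate and whiskers at ± SE. The light band spans the 5th to 95th percentile of all 15473 tested genes (-2.76 to 0.98) and the dark band the 25th to 75th (-0.37 to 0.30), and SESN3 at -5.46 lies outside the light band.

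In the order of length-scaled levels, shControl ran from CITED2 through KLF6, IRS2, KLF2, FOXO3, FOXO4, BCL6, FOXO1 and PIK3IP1 to SESN3. Only FOXO4 (5.10 ± 0.733 CPM per kb) and BCL6 (4.53 ± 0.176 CPM per kb) overlapped as neighbours in that order. In shTRIP6 no neighbours overlapped, KLF2 had passed IRS2 (19.8 ± 1.42 against 16.6 ± 0.457 CPM per kb), and FOXO4 had dropped below BCL6 and FOXO1. These lengths are the union of all annotated exons, which can exceed the transcripts in use.

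The kinase pathway that controls FOXO proteins was read from a list of 32 genes, of which 29 could be tested. Here 7 rose, 16 fell and 6 did not pass, where 29.0% of all tested genes rose and 31.2% fell. The list mixes receptors and kinases with phosphatases, so its counts and median give no direction of pathway activity. The median log2 fold change was -0.26, against 0.00 over all tested genes. By the rule for named genes, IGF1R, the gene of the IGF1 receptor, had 26.2 ± 1.64 CPM with the TRIP6 hairpin and 123 ± 12.9 CPM with the scrambled one (log2 fold change -2.22 ± 0.08, edgeR adjusted p = 7.79e-15). PIK3R3, a regulatory subunit of PI3K, fell by 1.28 on the log2 scale. INPPL1, which encodes the lipid phosphatase SHIP2, was measured at 86.6 ± 0.737 CPM, with 205 ± 9.29 CPM in the controls (-1.24 ± 0.05). Among the kinase genes that rose were PIK3CD, with 18.1 ± 1.38 CPM over 10.6 ± 0.894 CPM in the controls (0.77 ± 0.11), and SGK3 (0.46 ± 0.12). Named for their textbook place and with their values known, AKT1 rose by 0.44 on the log2 scale, while AKT2 (-0.02, edgeR adjusted p = 0.808) and PDPK1 (-0.02, edgeR adjusted p = 0.800) did not pass. Subunits of mTORC2, the complex that completes AKT activation, were also named this way: RICTOR fell by 0.86 and MAPKAP1 fell by 1.00 on the log2 scale. MTOR (0.09, edgeR adjusted p = 0.160) and MLST8 (0.04, edgeR adjusted p = 0.575) did not pass. RPTOR, a subunit of mTORC1, fell by 1.08, so the falls were not confined to mTORC2.

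Genes of enzymes and partners that modify FOXO proteins were called in both directions. Of 36 listed genes 35 were tested, 14 rose, 10 fell and 11 did not pass, and without shTRIP6 replicate 3 the rises numbered 9. The 68.6% called lies near the 60.1% of all tested genes, and the median log2 fold change was 0.07. The 2 acetyltransferase genes that were named by the rule fell most: EP300 went from 105 ± 10.8 CPM in the controls to 44.1 ± 1.47 CPM with the TRIP6 hairpin (log2 fold change -1.25 ± 0.07), and CREBBP from 96.1 ± 11.4 to 49.9 ± 0.510 CPM (-0.95 ± 0.07). Their products are also the proteins that CITED2 binds. PRKAA1, a catalytic subunit of AMPK, fell by 0.48 on the log2 scale. The kinase gene IKBKB, the 14-3-3 sigma gene SFN and the Hippo kinase gene STK3 rose by 0.54, 0.44 and 0.42, each encoding a protein described as binding or phosphorylating FOXO factors or, for SFN, belonging to the 14-3-3 family.

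Other genes described as FOXO-regulated in other systems gave a divided picture as well. Of 43 listed genes 37 were tested, 11 rose, 18 fell and 8 did not pass, with a median log2 fold change of -0.17. Over all tested genes 29.0% rose, about the share seen here, and 31.2% fell. PDK4, which restrains pyruvate oxidation, went from 4.01 ± 0.727 CPM in the controls to 0.392 ± 0.0645 CPM (log2 fold change -3.34 ± 0.30). KLF4, a factor of epithelial differentiation, went from 20.5 ± 1.17 to 2.47 ± 0.391 CPM (-3.05 ± 0.14). CCND2, a D-type cyclin gene described as repressed by FOXO, had 2.03 ± 0.227 CPM in the controls and no count with the TRIP6 hairpin, which makes it at least 63.7-fold lower there (taking 3 counts over the 3 libraries as the limit). Its partner in that description, CCND1, rose to 1027 ± 11.5 against 664 ± 12.5 CPM (0.63 ± 0.04). ERBB3, a receptor gene raised when PI3K is inhibited, rose to 10.5 ± 0.280 against 2.94 ± 0.706 CPM (1.83 ± 0.17), and the stress gene GADD45B rose by 0.56 on the log2 scale.

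Textbook FOXO targets were named in addition, with their values known. The death gene BCL2L11 fell by 1.22 on the log2 scale, the insulin receptor gene INSR by 0.51, CCNG2 by 0.58 and the manganese superoxide dismutase gene SOD2 by 0.37. The cell cycle inhibitor gene CDKN1A rose by 0.25 and the DNA damage gene GADD45A by 0.31, while CDKN1B, the inhibitor p27, did not pass (0.02, edgeR adjusted p = 0.789). The gluconeogenic targets PCK1 and G6PC and the death ligand gene FASLG had no count in any library.

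**Figure D4:**
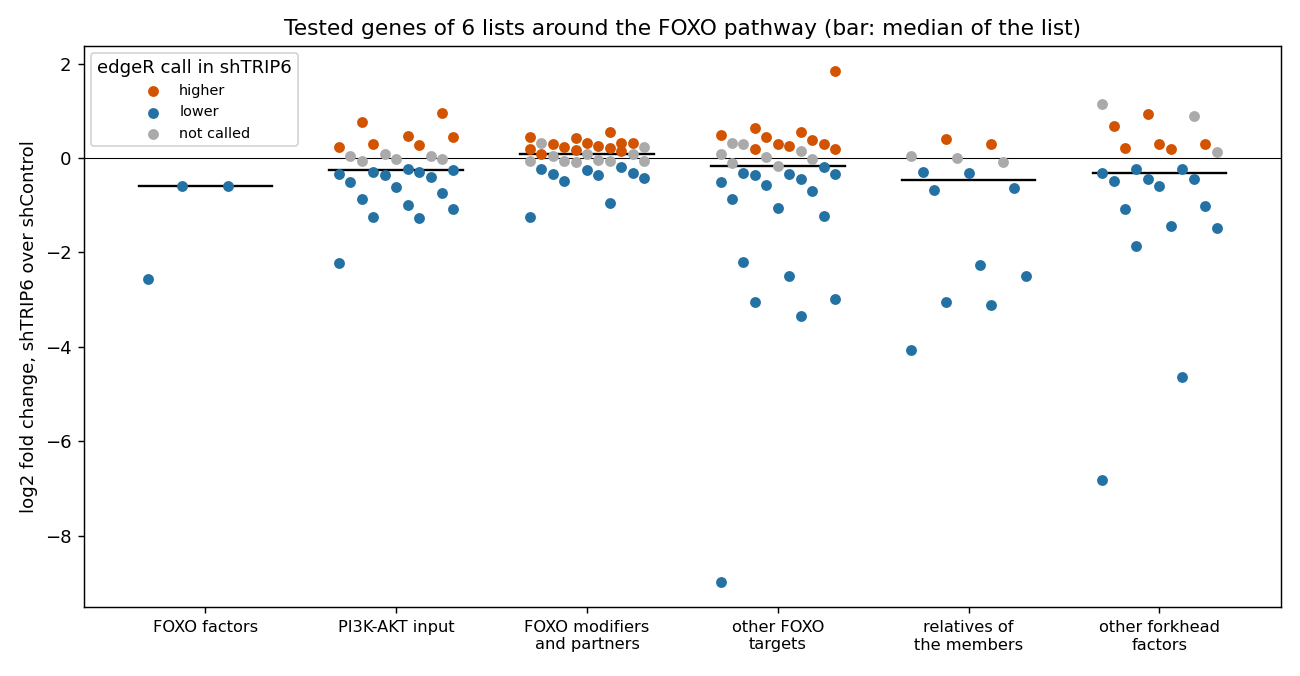
Log2 fold change of shTRIP6 over shControl (vertical axis) for the tested genes of 6 lists, with points coloured by edgeR call and a bar at each list's median. The lists hold calls in both directions except the FOXO factors, all 3 lower, and the lowest point is CCND2, whose plotted fit rests on 0 counts in shTRIP6.

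The nearest relatives of the responsive genes did not all move with them. Of 22 relatives 14 were tested, of which 2 rose, 9 fell and 3 did not pass (29.0% and 31.2% of all tested genes rose and fell), with a median log2 fold change of -0.47. The rises numbered 4 without a low-count filter and in DESeq2. Among sestrins, SESN2 rose to 41.0 ± 0.877 against 33.2 ± 2.27 CPM (0.30 ± 0.07) while SESN1, named with its value known, fell by 0.31. SESN2 was thus the main sestrin mRNA per kb in both groups, at 11.9 in shTRIP6 and 9.62 CPM per kb in shControl, against 0.00606 and 0.282 CPM per kb for SESN3. Among Kruppel-like factors, where KLF2 and KLF6 rose, KLF16 rose by 0.41, KLF5 went from 134 ± 15.7 CPM in the controls to 7.95 ± 0.374 CPM (-4.07 ± 0.09), and KLF4 fell as given above. CITED4, the paralogue of CITED2, fell more than it did, to 5.03 ± 0.516 against 43.5 ± 1.46 CPM (-3.11 ± 0.10).

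The surroundings of the members in the genome were read from the 4 nearest tested genes on each side, a count chosen with results known. Of 80 such neighbours 23 rose, 26 fell and 31 did not pass, with a median log2 fold change of -0.05, close to the 29.0% that rose and the 31.2% that fell among all tested genes. Around FOXO4, 6 of 8 neighbours fell, with a median of -1.05. They include IL2RG, 15.9 kb from the start of FOXO4, at a log2 fold change of -5.60 and a mean of 0.359 CPM over the 6 libraries. On the same side lie MED12 (-0.87, 22.4 kb), NLGN3 (-2.34, 48.6 kb, at a mean of 1.78 CPM) and ZMYM3 (-1.23, 159 kb). To the other side, SNX12 (-0.16, 22.8 kb) and DLG3 (-2.01, 651 kb) were also called lower. DLG3 had 6.06 CPM in shTRIP6 and 24.4 CPM in shControl. Around SESN3, 6 of 8 neighbours fell, with a median of -0.29, the lowest being KDM4D (-1.68, at a mean of 1.25 CPM) and MTMR2 (-0.78). Around PIK3IP1, 5 of 8 rose and 1 fell, INPP5J at -3.19 and a mean of 0.931 CPM. Around IRS2, 4 of 8 fell and 1 rose, with a median of -0.71. Those that fell were COL4A2, COL4A1 and COL4A2-AS1, 519 to 722 kb to the same side, and MYO16, 1190 kb away at a mean of 0.483 CPM. Around FOXO1, which itself fell, 5 of 8 rose and none fell, with a median of 0.28. For the other 5 members 1 to 3 of 8 neighbours fell and 1 to 4 rose. These neighbours were named with their values known, and whether position has a part in the falls of FOXO4 and SESN3 was not tested.

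**Figure D5:**
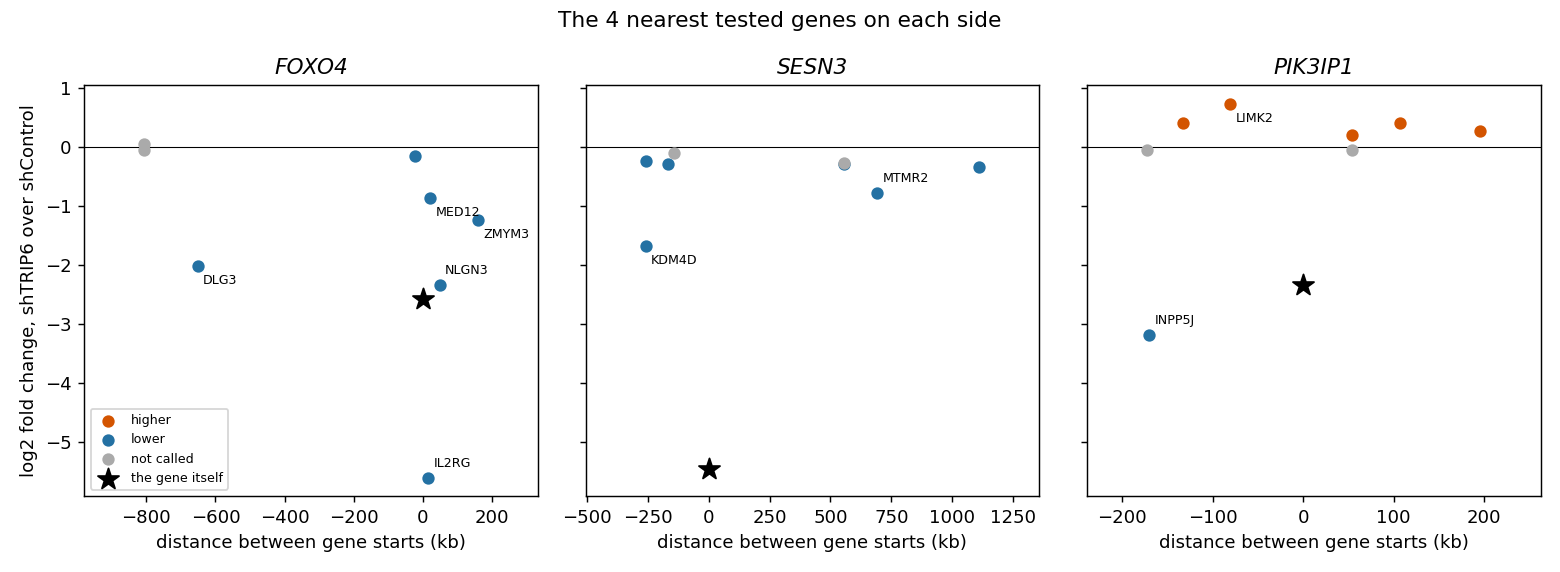
Log2 fold change of shTRIP6 over shControl (vertical axis) against distance between gene starts in kb (horizontal axis) for the 4 nearest tested genes on each side of FOXO4, SESN3 and PIK3IP1, coloured by edgeR call, with the gene itself as a star at 0. Neighbours beyond 0.7 in either direction are labelled, and those of FOXO4 reach -5.60 at IL2RG.

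The genes whose pattern over the 6 libraries was most like that of a factor gene were found by Pearson's r of log2 CPM among genes whose mean reached 10 CPM. They were TPM4 (r = 0.999) and SPEN (r = 0.997) for FOXO1, UBN2 and ELK1 (r = 0.998 each) for FOXO3, and MCCC1 and MAGEF1 (r = 0.999 each) for FOXO4. The 6 libraries fall into 2 groups, so any gene that differs between the groups correlates: 225, 1600 and 1590 genes had an r over 0.95 with FOXO1, FOXO3 and FOXO4. These values are a description only.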

How the data were processed

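RNA of 3 shTRIP6 and 3 shControl libraries of RKO cells was measured by sequencing. The authors deposited raw read counts per gene symbol, 1 file per library, without normalization. TopHat2, edgeR, limma and hg38 are named without role or version, per the submitters' processing notes. The sources used here do not give the counter, its annotation or its strand setting.

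Each library was grouped by its title. Genes were filtered with filterByExpr, scaled by TMM and tested with edgeR 4.0.16 in R 4.3.3 (quasi-likelihood, group as the only term) over 15473 genes, with Benjamini-Hochberg adjustment and a threshold of 0.05. The SE is the log2 fold change divided by the square root of F. A count was worth 0.0314 to 0.0336 CPM. The test was checked on simulated data. Replicates differed by more than sampling noise: chi-square divided by its degrees of freedom was 3.05 to 11.7 for pairs within a group and 118 to 135 for pairs across groups. Coordinates and lengths are from GENCODE 29 (GRCh38), promoter windows from RefSeq. SEPP1 and C10orf10 were matched as SELENOP and DEPP1.

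The members and lists were chosen with earlier results of these data known. Named by rule were the members, TRIP6, the FOXO genes, the up to 3 largest rises and falls per list (called, mean at least 1 CPM), and for each factor the 2 genes most like it in pattern (log2 of CPM + 0.1, mean at least 10 CPM, leaving out symbols of the clone, LINC or orf type). Some genes that the rule names are not reported here. Other genes are said to be named with their values known. Alternatives were scaling by RLE, by upper quartile or not at all, no filter, at least 3 libraries at 1 CPM, limma-voom (limma 3.58.1), DESeq2 1.42.0, a replicate block and leaving out each library. Summing FOXO3 and FOXO3B was added after seeing the data.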

Additional observations from a re-analysis of the deposited data

How the results depend on the processing

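All 10 members kept their direction and their call in each of 14 alternatives, with 8 lower and 2 higher in every one. Their largest adjusted p over these alternatives was 0.0146, for FOXO1 without shControl replicate 1. The log2 fold change of FOXO1 ranged from -0.69 to -0.39 and that of SESN3 from -6.38 to -4.89, where depth limits the value. Of the counts by list, the rises among FOXO modifiers and partners ranged from 9 to 13 when 1 library was left out (14 with all). They ranged from 11 to 17 over the alternatives that kept all libraries. The rises among relatives of the members were 4 without the low-count filter and 4 in DESeq2 (2 in edgeR). The cause was not tested. With the replicate number as a block, 4377 genes rose and 4702 fell, the members stood at 2 and 8, and no call of a member changed. Same-numbered libraries did not deviate together (r of -0.0206, -0.0385 and -0.0307), none correlated best with its own number, and they were not treated as pairs. Among genes named by the rule, the call of FOXH1 was lost without shTRIP6 replicate 2 (0.51, edgeR adjusted p = 0.108), and FOXO3B passed under upper-quartile scaling (0.25, edgeR adjusted p = 0.0413). Depth limits FOXO6, called lower in 4 alternatives and otherwise not tested or not called, and counts cannot separate reads shared by FOXO3 and FOXO3B.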

Other observations

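Forkhead genes outside the FOXO group share the DNA-binding domain with FOXO factors. Of 35 listed genes 23 were tested, 6 rose, 14 fell and 3 did not pass, with a median log2 fold change of -0.31. The shares over the whole table were 29.0% higher and 31.2% lower. FOXQ1, a forkhead gene raised in many colorectal cancers, went from 36.2 ± 1.23 CPM in the controls to 0.317 ± 0.160 CPM (-6.81 ± 0.17, edgeR adjusted p = 7.75e-17). FOXL2, a gene of ovarian differentiation, went from 2.22 ± 0.139 to 0.0851 ± 0.0377 CPM (-4.65 ± 0.46), and FOXL1 fell by 1.87 on the log2 scale. FOXD1 rose to 283 ± 3.42 against 149 ± 8.77 CPM (0.93 ± 0.05), which made it the most abundant gene by CPM to rise in this list. FOXH1, a partner of SMAD proteins, rose by 0.68 and FOXK1 by 0.30 on the log2 scale, and the call of FOXH1 was lost without shTRIP6 replicate 2 (edgeR adjusted p = 0.108).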
